A study of Mus musculus with 24 samples.

Results

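A list of 33 transcripts typical of macrophages and monocytes was followed through the activation of mouse CD4+ T cells. These 33 genes, of 22009 named genes in the table, were taken as a fixed list, and they were chosen by their RPKM in the resting cells, where such transcripts were abundant, and in the cultures, where most were low. The comparison of resting cells with cultures therefore chose the genes, and for them it is given here as a description without a test. The differences between the culture conditions were tested across all genes. Since the list was drawn up with earlier results of these cultures known and was meant to show exceptions that depend on the condition, counts of its members are no independent support.

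RNA sequencing was carried out on CD4+ cells from the spleen of adult WT C57BL/6 mice, pooled from several animals and isolated by EasySep negative selection, with a CD4+ purity that the labels put above 95%. Resting cells gave 2 libraries. Cultures on anti-CD3 with anti-CD28 (Th0), with IL-12 and anti-IL-4 added (Th1) or with IL-4, anti-IFN-γ and anti-IL-12 added (Th2) gave 1 library each at 4, 8, 12, 16, 20 and 24 h, 18 in all. In 4 further libraries, cells had been activated for 16 h and were given actinomycin, which stops transcription, for 0, 1, 2 or 4 h; the labels do not say how these cells were skewed. Elsewhere the labels speak of purified CD4+ cells and the study's methods of naive ones. The labels tag resting and cultured libraries differently, so activation and a change of preparation cannot be told apart. Expression is in RPKM, read counts scaled to transcript length and to the mapped reads of the library, which can be compared between genes. The number of mapped reads, recovered from the values, was between 17512385 and 33017133 in the time course and between 18052931 and 25735543 with actinomycin.

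Macrophages and monocytes depend on signals through the CSF-1 receptor and on the transcription factor PU.1. They take up dying cells, antibody-coated particles and microbes, degrade them in lysosomes and present the peptides, and the macrophages of the splenic red pulp remove old red cells. Negative selection removes other cells with antibodies and leaves CD4+ cells untouched, so RNA of other spleen cells can remain in the preparation. Several of the 33 genes are not restricted to macrophages: Psap and Cst3 are active in most cell types, Tyrobp, Fcer1g and Fcgr3 also in NK cells, and Spi1, Ctss and Cybb also in B cells.

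Macrophage markers were present at rest: 32 of the 33 genes averaged 1 RPKM or more. The complement chains C1qa, C1qb and C1qc, Vcam1, Axl, Csf1r and Adgre1 were between 30.2 RPKM (Adgre1 in resting replicate 2) and 109.6 RPKM (C1qa in resting replicate 1). Vsig4, a complement receptor of some tissue macrophages, was listed at 0 and 0.119 RPKM, and it is left out of the counts that follow. A second list of 55 other macrophage and monocyte genes, of which 54 were in the table, had a mean of at least 1 RPKM at rest for 50, led by the lysosomal protease Ctsd (291.1 ± 10.2 RPKM, SD, n = 2), the haem-degrading enzyme Hmox1 (251.6 ± 1.53 RPKM, SD, n = 2) and the lipid carrier Apoe (219.9 ± 0.576 RPKM, SD, n = 2). Together the 33 genes had 1653 and 1717 summed RPKM in the resting libraries, 0.272% and 0.284% of all RPKM, against 2742 and 2788 for the 11 T cell genes in the table.

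Other cell types were measured beside them. The summed RPKM at rest was 89.97 and 100.4 for 12 B cell genes (led by Cd79b and Cd79a), 152.8 and 150.7 for 8 NK cell genes (Gzma and Klrb1c), 12.4 and 12.7 for the 2 CD8 T cell genes (Cd8b1 and Cd8a), 18.4 and 16.8 for 12 neutrophil genes (Mpo and Cxcr2), 63.1 and 66.2 for 10 dendritic cell genes (Bst2 and Ccr9) and 59.3 and 62.2 for 8 platelet genes (Itgb3 and Ppbp). Of the neutrophil genes 2 were at 0 in both resting libraries. Red cell genes, led by the globins Hbb-bs and Hba-a2, summed to 39126 and 42676 RPKM for 10 genes. At 4 h the macrophage list had 31.3% of its summed resting level left, and at 24 h 13.5%. At the same times the shares were 84.1% and 76.6% for the T cell list, 62.7% and 23.7% for the B cell list, 112.0% and 42.7% for the NK cell list, 109.0% and 73.4% for the CD8 list, 80.1% and 21.4% for the neutrophil list, 69.6% and 104.6% for the dendritic cell list, 98.8% and 18.2% for the platelet list, and 90.6% and 1.05% for the red cell list. A sum follows its most abundant genes, such as Bst2 in the dendritic cell list (45.3 RPKM at rest, 60.9 RPKM at 24 h). In median over genes with at least 1 RPKM at rest, the macrophage list had 2.46% left at 24 h. The dendritic cell list had 17.1%. It was 72.9% for T cell, 13.4% for B cell, 33.8% for NK cell and 83.0% for CD8 genes. Neutrophil, platelet and red cell genes had 5.94%, 12.3% and 0.444%. RPKM is a share of each library, so fewer cells of a type, less RNA per cell and more RNA from the T cells cannot be told apart.

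Most of the macrophage transcripts were at a small part of their resting level at the first time point. Taking the mean of the 3 cultures over the mean of the 2 resting libraries, the median of the 32 genes was 14.7% at 4 h, 7.75% at 8 h, 6.53% at 12 h, 6.35% at 16 h, 4.23% at 20 h and 2.46% at 24 h. Over all 11348 genes with a resting mean of at least 1 RPKM the median was 94.8% at 4 h and 92.1% at 24 h. At 4 h, 15 of the 32 genes had at most 10% left and 28 at most 50%; at 24 h these numbers were 22 and 31. For 29 of the 32, every culture lay below both resting libraries, as it did for 19.4% of the 10897 genes that averaged 1 RPKM or more over the time course, and the exceptions were Ctss, Ccr2 and Ms4a6c. Since these values chose the genes, nothing is read from that count or from the counts at 10% and 50%.

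**Figure D1:**
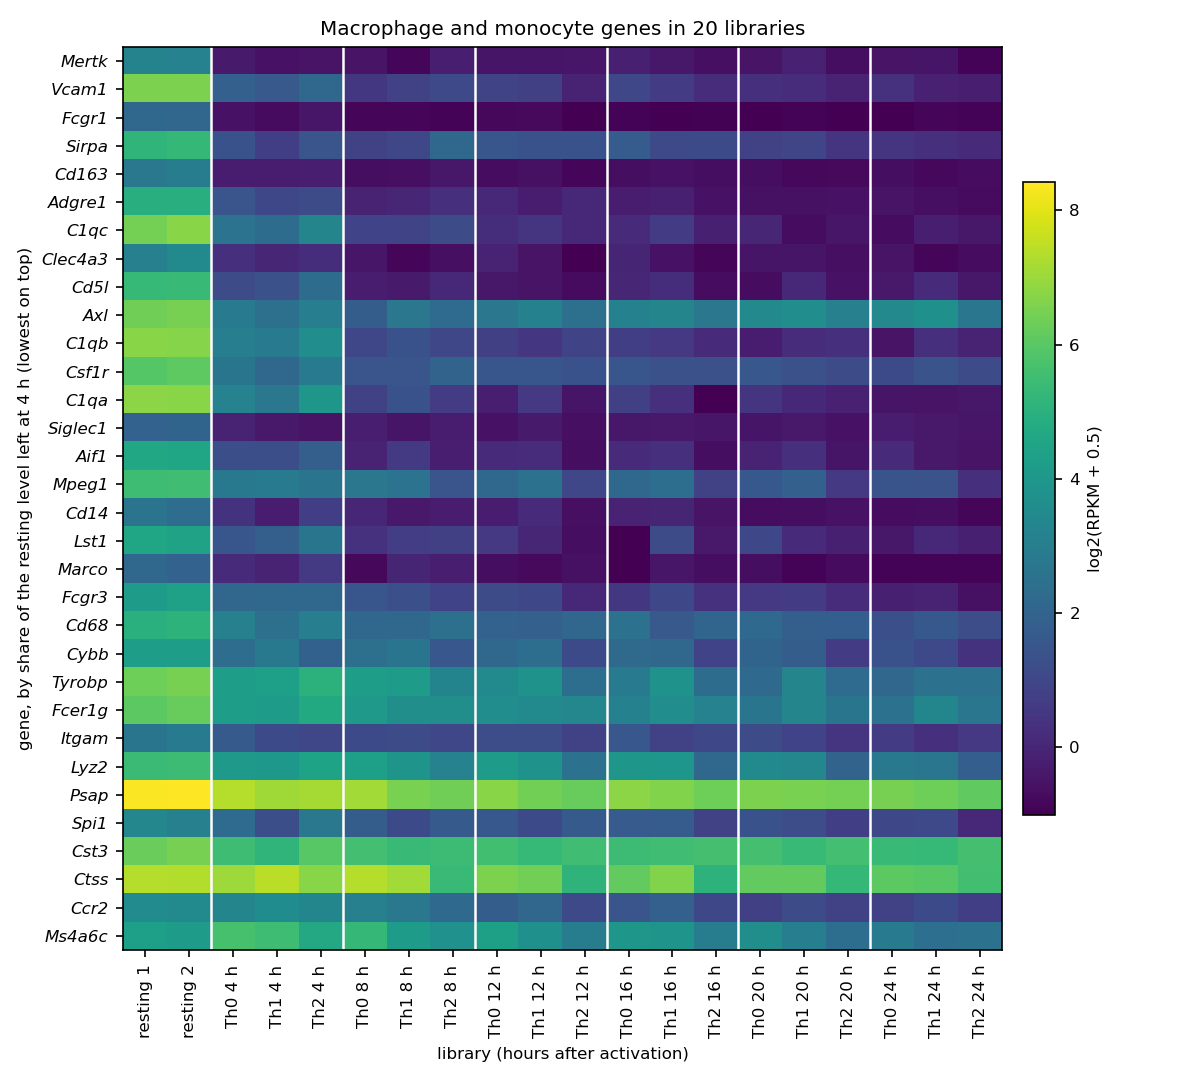
Heat map of log2(RPKM + 0.5) for the 32 genes with a resting mean of at least 1 RPKM (rows) in the 2 resting libraries and 18 cultures (columns, 1 library each, white lines between time points). Rows run from Mertk, with 2.68% of its resting level left at 4 h, to Ms4a6c, with 216.7%, and 29 of the 32 genes halved faster before 4 h than after it. Since these values chose the genes, that count is a description only.

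In median the loss was steeper before 4 h than after it. Both macrophage lists were drawn up with these data known, so the halving times are a description only. The step from rest to 4 h also spans the change of tag in the labels. If the means are joined by an exponential, the level was halved in 1.42 h in median between rest and 4 h (31 genes, without Ms4a6c), but in 8.70 h between 4 and 24 h (31 genes, without Axl), and the first time was the shorter one for 29 genes. The second list of macrophage genes gave 1.48 h and 11.3 h, with 17.0% left at 4 h and 5.67% at 24 h in median over its 50 genes. The genes with the shortest early halving were Mertk with 0.766 h, Vcam1 with 0.824 h, Fcgr1 with 0.897 h, Sirpa with 0.927 h and Cd163 with 0.937 h.

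**Figure D2:**
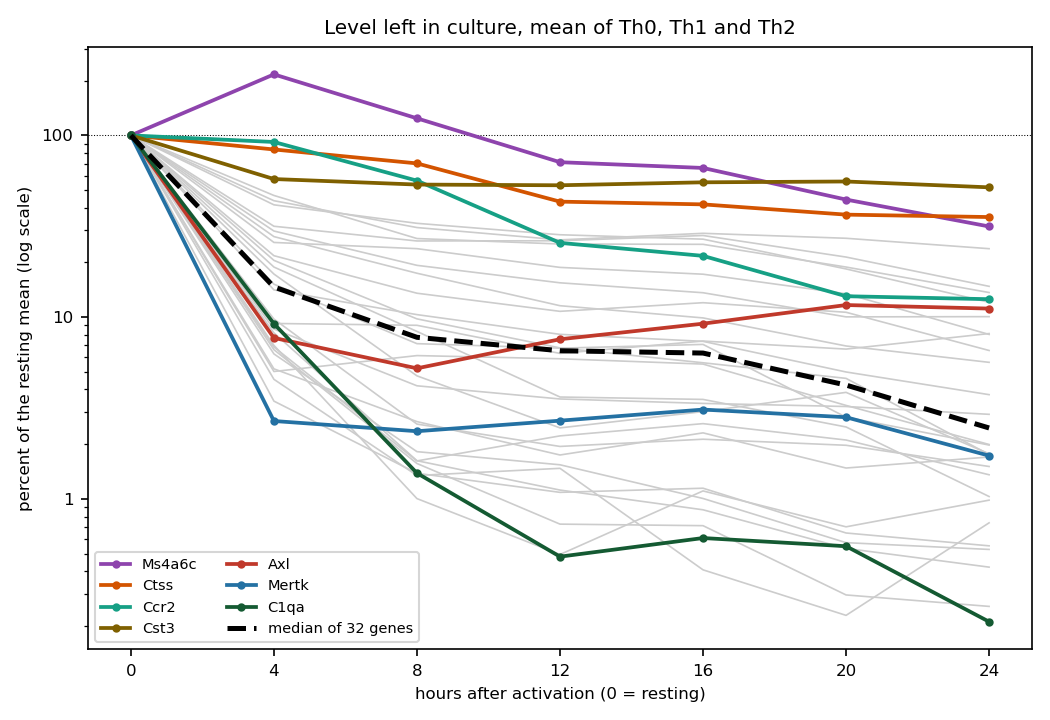
Percent of the resting mean (log scale) against hours after activation, as the mean of the Th0, Th1 and Th2 cultures; each grey line is 1 of 32 genes, coloured lines are named genes and the dashed line is the median. The median goes from 14.7% at 4 h to 2.46% at 24 h, while Cst3 stays at 51.8% or more and Ms4a6c is above 100% at 4 and 8 h.

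**Figure D3:**
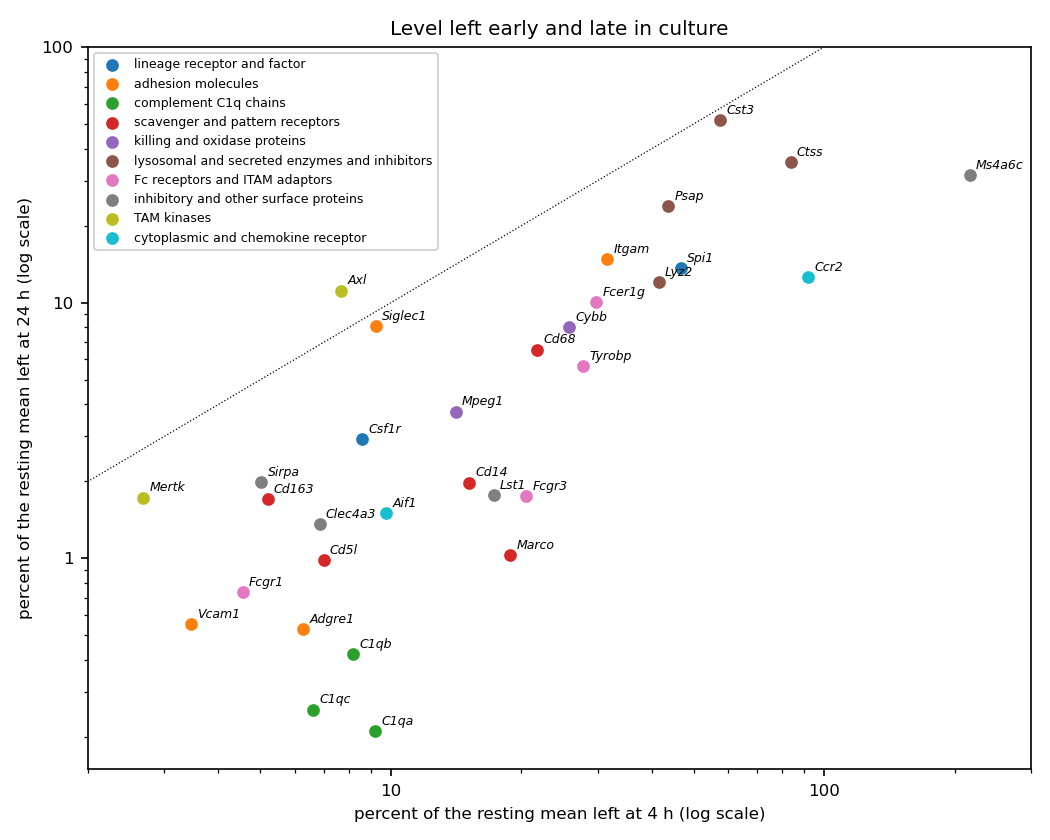
Percent of the resting mean left at 4 h (horizontal) and at 24 h (vertical), both on log scales, for 32 genes coloured by the role of their protein; the dotted line marks equal shares. Points lie below the line except Axl, which had 7.69% left at 4 h and 11.1% at 24 h, and the complement chains are the lowest at 24 h.

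The 5 genes shown here carried the difference between culture conditions described further on, and the 250 bases before their RefSeq transcription start (GRCm38.p6) are shown because they were lower together in Th2. They are Ctss (chr3:95526536-95526785, plus strand), Cybb (chrX:9469325-9469574, minus strand), Lyz2 (chr10:117282273-117282522, minus strand), Ms4a6c (chr19:11469118-11469367, plus strand) and Mpeg1 (chr19:12460520-12460769, plus strand), each written 5′ to 3′ on the gene's strand. Capitals mark matches, on either strand, to the interferon response motif (GAAA, any 2 bases and GAAA again) or to AGGAAGT, an Ets motif of the kind that PU.1 binds; both motifs were chosen after the values were seen.
Ctss: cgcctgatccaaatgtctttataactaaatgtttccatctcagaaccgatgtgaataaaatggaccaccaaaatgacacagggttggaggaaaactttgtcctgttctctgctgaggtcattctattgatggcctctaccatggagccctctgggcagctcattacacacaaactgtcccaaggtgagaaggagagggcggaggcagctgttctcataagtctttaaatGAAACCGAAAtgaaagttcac
Cybb: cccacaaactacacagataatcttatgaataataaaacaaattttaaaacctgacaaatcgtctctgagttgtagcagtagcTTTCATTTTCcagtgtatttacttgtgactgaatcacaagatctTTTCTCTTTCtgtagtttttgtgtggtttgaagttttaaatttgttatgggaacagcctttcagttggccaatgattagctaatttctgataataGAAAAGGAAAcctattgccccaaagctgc
Lyz2: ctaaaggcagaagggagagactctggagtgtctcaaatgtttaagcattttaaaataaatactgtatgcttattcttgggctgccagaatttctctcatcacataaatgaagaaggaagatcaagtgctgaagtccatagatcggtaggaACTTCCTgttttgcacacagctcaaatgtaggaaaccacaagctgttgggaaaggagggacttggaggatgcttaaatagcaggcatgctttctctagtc
Ms4a6c: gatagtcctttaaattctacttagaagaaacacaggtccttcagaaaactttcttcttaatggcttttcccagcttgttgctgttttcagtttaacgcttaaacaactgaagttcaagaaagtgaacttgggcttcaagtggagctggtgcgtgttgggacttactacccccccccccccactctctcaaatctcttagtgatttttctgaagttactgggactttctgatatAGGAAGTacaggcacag
Mpeg1: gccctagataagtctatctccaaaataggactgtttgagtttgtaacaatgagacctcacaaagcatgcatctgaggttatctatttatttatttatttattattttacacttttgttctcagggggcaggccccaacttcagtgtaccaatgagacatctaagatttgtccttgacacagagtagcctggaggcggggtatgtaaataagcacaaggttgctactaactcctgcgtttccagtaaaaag
Ctss held 1 match to the interferon response motif, 21 to 12 bases before its start, and Cybb held 3, at 168 to 159, 124 to 115 and 29 to 20 bases before it. Lyz2 held 1 match to AGGAAGT at 100 to 94 bases and Ms4a6c 1 at 17 to 11 bases, and the Mpeg1 window held neither. RefSeq promoters were found for 23 of the 33 genes, in 26 windows. Among these, the interferon response motif occurred in 3 (Aif1, Ctss and Cybb) and AGGAAGT in 5 (C1qb, C1qc, Fcgr1, Lyz2 and Ms4a6c), against 2.98% and 7.69% of 32851 promoters of the same length. A match describes the letters of the window and is no evidence of binding.

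Csf1r, the receptor for CSF-1 (GRCm38 chromosome 18, 61100598 to 61132149, plus strand), had 60.8 and 66.8 RPKM at rest. At 4 h it had 5.77, 3.94 and 6.76 RPKM in Th0, Th1 and Th2, and at 24 h 1.64, 2.17 and 1.78 RPKM. All cultures were far below both resting libraries, and the 3 conditions overlapped. Of the 50-base windows of its annotated transcripts (GENCODE, GRCm38), 14.3% also occur in those of Hmgxb3, so part of its reads may belong there. Spi1, which encodes PU.1, was lost more slowly, with 46.7% left at 4 h and 13.7% at 24 h. It had 9.88 and 8.10 RPKM at rest, 4.35, 1.90 and 6.35 RPKM at 4 h in Th0, Th1 and Th2, and 1.56, 1.61 and 0.523 RPKM at 24 h, so Th2 had the highest of the 3 values at 4 h and the lowest at 24 h.

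The 3 chains of C1q, which starts the classical complement pathway and is made by tissue macrophages, lie side by side on chromosome 4 between 136880129 and 136898803. They shared their time course. C1qa had 109.6 RPKM (2253 reads) and 107.3 RPKM (2628 reads) at rest, 8.61, 6.07 and 15.3 RPKM at 4 h in Th0, Th1 and Th2, and 0.215 RPKM (6 reads), 0.209 RPKM (6 reads) and 0.263 RPKM (7 reads) at 24 h. In Th2 at 16 h C1qa had 0 reads, which allows up to 0.114 RPKM (3 reads, counting error only). The share left of the 3 chains was between 6.62% (C1qc) and 9.20% (C1qa) at 4 h, at most 1.62% at 8 h, and between 0.211% (C1qa) and 0.421% (C1qb) at 24 h. At 24 h these were the 3 lowest shares of the 32 genes, and their median halving time of 4.26 h between 4 and 24 h was shorter than the 8.70 h over the 31 genes that were lower at 24 h than at 4 h. The Th2 library had the highest value of each chain at 4 h.

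The receptors that bind microbes or debris had at most 21.8% left at 4 h. Cd163, which takes up haemoglobin bound to haptoglobin, had 6.40 and 7.19 RPKM at rest and 0.351, 0.352 and 0.356 RPKM at 4 h. Cd5l, a secreted protein of the scavenger receptor family, had 39.0 and 39.9 RPKM at rest, 1.77, 2.00 and 4.50 RPKM at 4 h, then between 0.269 and 0.621 RPKM at 24 h. Cd14, which hands endotoxin to its receptor, had 15.2% left at 4 h and Marco, a scavenger receptor, 18.9%. Cd68, a lysosomal membrane glycoprotein, was slower: it had 30.9 and 33.2 RPKM at rest, 8.14, 5.07 and 7.73 RPKM at 4 h, then 1.98, 2.51 and 1.81 RPKM at 24 h, where the share first came under 10%.

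Among Fc receptors and their adaptors the receptor chains were lost faster than the adaptors. Fcgr1, the high-affinity receptor for IgG, had 3.93 RPKM (201 reads) and 3.84 RPKM (234 reads) at rest and at most 12 reads in a culture at 4 h. At 24 h it had 0 reads in Th0, which allows up to 0.0432 RPKM (3 reads, counting error only), 4 reads in Th1 and 2 in Th2. Its share left at 24 h, 0.739%, was 0.389% without the Th1 library and is not resolved at this depth. Fcgr3, the low-affinity receptor for IgG, had 20.5% left at 4 h and 1.76% at 24 h, and 9.58% of its windows occur in Fcgr2b. The signalling adaptors Tyrobp (DAP12) and Fcer1g (the common γ chain) had 27.7% and 29.8% left at 4 h. Tyrobp had 81.1 and 89.2 RPKM at rest, 18.5, 19.5 and 32.9 RPKM at 4 h in Th0, Th1 and Th2, and 3.83, 5.38 and 5.199 RPKM at 24 h. Fcer1g had 65.0 and 73.7 RPKM at rest against 5.30, 9.59 and 6.04 RPKM at 24 h; its share, 10.1% at 24 h, did not come to 10%. The NK cell list, whose cells also use both adaptors, summed to between 101.6 and 217.1 RPKM at 4 h and between 53.5 and 72.0 RPKM at 24 h; its part in these values was not tested.

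Adhesion molecules ran from the fastest to the slower genes. Vcam1, an adhesion ligand for integrins of lymphocytes, had 94.7 and 92.7 RPKM at rest and 3.24, 2.60 and 3.86 RPKM at 4 h, 3.45% of rest. Adgre1, the gene of F4/80, had 30.3 and 30.2 RPKM at rest, 2.32, 1.58 and 1.795 RPKM at 4 h, then 0.210, 0.158 and 0.110 RPKM at 24 h. Siglec1, a sialic acid receptor of marginal metallophilic macrophages, was low at rest (3.39 and 3.55 RPKM), had 9.23% left at 4 h and stayed between 0.158 and 0.461 RPKM in the cultures. Itgam, the α chain of integrin CD11b, kept 31.6% at 4 h and 14.8% at 24 h (23.0% with quantile normalization), from 5.76 and 6.59 RPKM at rest to 1.04, 0.718 and 0.976 RPKM at 24 h. Of its windows 66.3% also occur in the predicted gene Gm49368, so its level is uncertain.

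The TAM kinases, which bind dying cells through Gas6, went apart after 4 h. Mertk had 8.88 and 8.53 RPKM at rest, 0.306, 0.192 and 0.203 RPKM at 4 h, then stayed between 0.0273 and 0.402 RPKM. Axl had 83.5 and 88.3 RPKM at rest, against 7.06, 5.00 and 7.75 RPKM at 4 h. Its lowest mean, 5.23% of rest, came at 8 h with 2.91, 6.12 and 4.45 RPKM, and its mean at 24 h was 2.13 times the lowest one, with 10.2, 12.6 and 5.99 RPKM in Th0, Th1 and Th2. In Th0 each value of Axl from 16 h on was above the one at 4 h, in Th1 each from 8 h on, and in Th2 this held at 20 h. No other member with a resting mean of at least 1 RPKM had a higher mean at 24 h than at 4 h. This later course belongs to the description that chose the list and was not tested.

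Lysosomal and secreted proteins had a median of 50.6% left at 4 h and 29.7% at 24 h, the highest of the role groups at 24 h, and none of the 4 came to 10%. Psap, the precursor of the saposins that help degrade sphingolipids, was the most abundant member with 328.0 and 340.7 RPKM at rest, 162.6, 135.0 and 140.8 RPKM at 4 h, then 89.8, 80.7 and 68.2 RPKM at 24 h. Cst3, which encodes the cysteine protease inhibitor cystatin C, had 76.8 and 88.5 RPKM at rest, 44.6, 35.3 and 62.7 RPKM at 4 h, then 39.9, 39.2 and 49.3 RPKM at 24 h; with 51.8% left it was the member that did not come to 50%. Ctss, the gene of cathepsin S, which cuts the invariant chain of MHC class II (chromosome 3, 95526786 to 95556403, plus strand), had 165.5 and 161.4 RPKM at rest and 132.2, 171.6 and 106.4 RPKM at 4 h. The Th1 value lay above both resting libraries. Ctss had 64.7, 62.7 and 46.9 RPKM at 24 h. Lyz2, the lysozyme of macrophages and neutrophils (chromosome 10, 117277331 to 117282321, minus strand), had 42.4 and 43.4 RPKM at rest, 16.1, 15.9 and 21.4 RPKM at 4 h, then 6.48, 6.03 and 3.03 RPKM at 24 h. Of its windows 15.4% also occur in Lyz1.

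Ms4a6c was the exception that was higher in culture than at rest. This gene of the membrane-spanning MS4A family (chromosome 19, 11469366 to 11482192, plus strand) had 19.2 and 17.8 RPKM at rest and 50.7, 44.0 and 25.4 RPKM at 4 h in Th0, Th1 and Th2, so that all 3 cultures lay above both resting libraries. At 8 h it had 38.3, 17.6 and 12.9 RPKM, 124.1% of rest in mean with Th0 alone above both resting libraries, and at 24 h 7.14, 4.94 and 5.41 RPKM, 31.5% of rest. Of its windows 51.4% occur in other genes, among them Ms4a6b, so reads of its neighbours may be part of its level. The other surface proteins of this group were lost early. Sirpa, the receptor of the "do not eat me" signal CD47, had 35.7 and 38.2 RPKM at rest and 2.10, 1.16 and 2.31 RPKM at 4 h; Clec4a3 had 6.85% left at 4 h and Lst1 17.3%.

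Of the proteins that kill microbes, Mpeg1 (perforin-2, chromosome 19, 12460779 to 12465283, plus strand) had 44.8 and 45.3 RPKM at rest, 6.53, 6.92 and 5.65 RPKM at 4 h, then 2.20, 2.16 and 0.703 RPKM at 24 h. Cybb, the catalytic subunit of the phagocyte oxidase (chromosome X, 9435252 to 9487771, minus strand), had 19.1 and 18.3 RPKM at rest, 4.66, 6.55 and 3.25 RPKM at 4 h, then 2.08, 1.64 and 0.798 RPKM at 24 h. Both were below rest in every culture, and Th2 was the lowest of the 3 at each time. Aif1, the actin-binding protein Iba1, had 9.76% left at 4 h. Ccr2, the receptor by which monocytes follow Ccl2, had 92.0% left at 4 h, the highest share after Ms4a6c: it had 11.2 and 10.6 RPKM at rest and 9.27, 11.4 and 9.41 RPKM at 4 h, with the Th1 value above both resting libraries. It had 56.4% left at 8 h, 25.6% at 12 h and 12.6% at 24 h, and its halving time of 6.96 h from 4 to 24 h was shorter than that of 33.3 h before.

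The conditions were compared to ask whether skewing changed the level of these transcripts in culture. The genes of 5 proteins, cathepsin S, lysozyme, the oxidase subunit, perforin-2 and Ms4a6c, were lower in Th2 than in Th0 by slightly more than 2-fold, and 3 of them also lower than in Th1. The fit took the 18 cultures, with time as a factor, and 22 of the 33 genes had a mean of at least 1 RPKM there. By limma on log2(RPKM + 0.5), with an adjusted p under 0.05 and at least 2-fold as the threshold, 5 of the 22 were lower in Th2 than in Th0 (1.83% of all 10737 genes tested) and 3 of the 22 lower in Th2 than in Th1 (1.39% of all genes tested). In both comparisons 0 members were higher in Th2, against 0.186% and 0.568% of all genes tested. The median log2 difference of the members was -0.32 between Th2 and Th0 and -0.25 between Th2 and Th1, beside 0.00 and 0.02 for all genes.

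Ctss ran from 64.7 to 165.1 RPKM over the 6 Th0 libraries (median 82.5), from 62.7 to 171.6 RPKM in Th1 (median 91.7) and from 33.5 to 106.4 RPKM in Th2 (median 39.7). It was lowest in Th2 at each of the 6 times. The log2 difference was -1.03 against Th0 (SE 0.17, adjusted p = 0.000468, limma) and -1.09 against Th1 (SE 0.17, adjusted p = 0.000378, limma). Cybb, with medians of 4.16, 4.44 and 1.51 RPKM in Th0, Th1 and Th2, was likewise lowest in Th2 at 6 of 6 times, with log2 differences of -1.03 (SE 0.12, adjusted p = 1.56e-05, limma) and -1.07 (SE 0.12, adjusted p = 1.26e-05, limma). Mpeg1 had medians of 3.95, 5.05 and 1.41 RPKM in the same order and was lowest in Th2 at all 6 times. Its differences were -1.02 against Th0 (SE 0.14, adjusted p = 0.000116, limma) and -1.15 against Th1 (SE 0.14, adjusted p = 4.29e-05, limma). For Ctss, Cybb and Mpeg1 the conditions were nearer to each other at 4 h than at 8, 12, 16 and 20 h, as ratios of Th0 or Th1 to Th2.

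Lyz2 crossed over. At 4 h it was highest in Th2 with 21.4 RPKM, and from 8 h on it was lowest there, with 8.56 RPKM at 8 h against 19.4 RPKM in Th0 and 14.3 RPKM in Th1, and 4.03 RPKM at 16 h against 15.5 and 15.1 RPKM. Its difference was -1.10 against Th0 (SE 0.22, adjusted p = 0.00186, limma) and -0.94, under 2-fold, against Th1 (adjusted p = 0.00870, limma); without the 4 h cultures the latter was -1.21. Ms4a6c was lower in Th2 than in Th0 at 6 of 6 times, with a median of 17.6 RPKM in Th0 against 7.2 RPKM in Th2 and 13.3 RPKM in Th1, a difference of -1.10 (SE 0.14, adjusted p = 3.25e-05, limma). Against Th1 it was -0.57 (adjusted p = 0.0102, limma), under 2-fold.

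**Figure D4:**
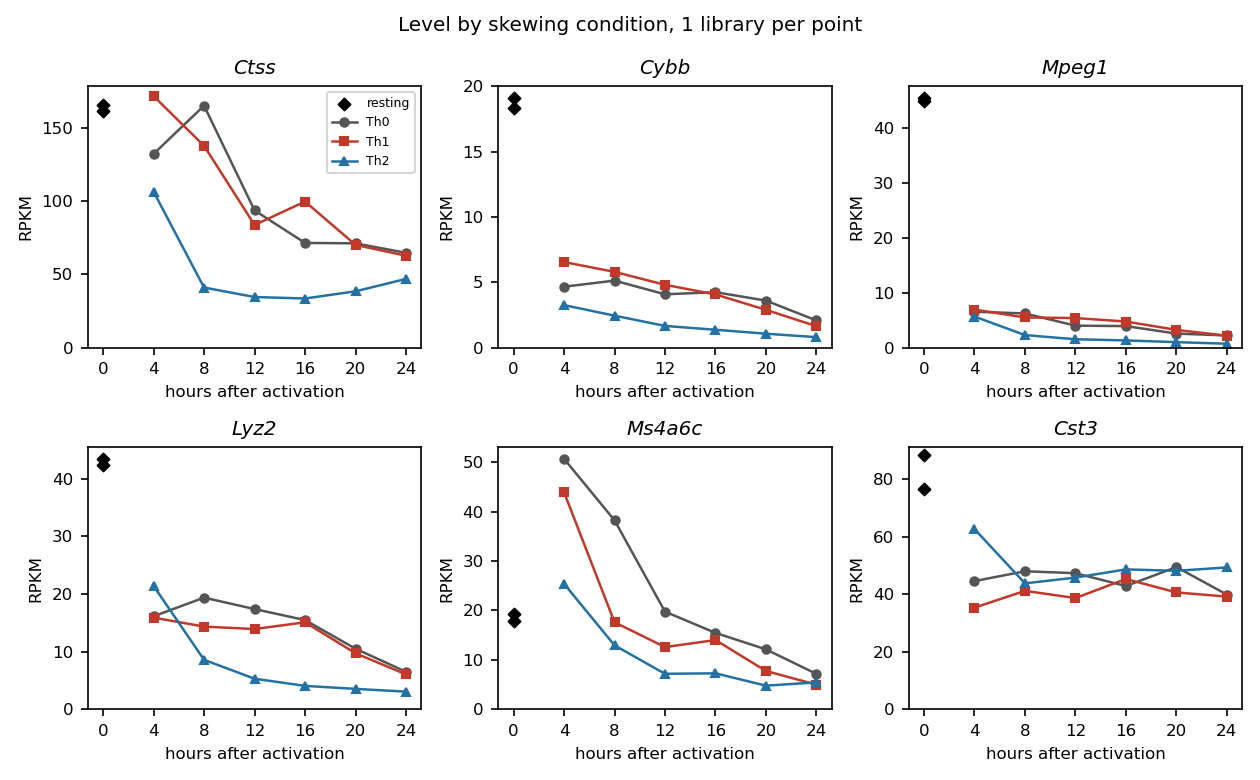
RPKM (linear axis from 0) against hours after activation for 6 genes, 1 library per point, with the 2 resting libraries at 0 h. The Th2 line lies below Th0 and Th1 at every time for Ctss, Cybb and Mpeg1 and from 8 h on for Lyz2; Ms4a6c peaks at 4 h; Cst3 in Th2 lies above Th1 at each time.

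Of the 5 calls against Th0, 4 sat near the 2-fold limit. The differences were under it, with the same direction, for Ctss without the 8 h (-0.83) or 12 h (-0.95) cultures, for Cybb without 16 h (-0.97) or 20 h (-0.96), for Lyz2 without 12 h (-0.998) or 16 h (-0.96), and for Mpeg1 without 8 h (-0.97), 12 h (-0.99), 16 h (-0.96) or 24 h (-0.99); against Th1, Ctss was -0.96 without 8 h and -0.99 without 16 h, and with a pseudocount of 1 Cybb was -0.92 and Mpeg1 -0.98. The number called against Th0 was thus 3 without 8 h and 2 without 12 h or 16 h; it was 3 with a pseudocount of 1 or quantile scaling and 2 with median-of-ratios scaling, while the direction stayed the same. Whatever the fold, 8 of 22 members had an adjusted p under 0.05 and were lower in Th2 than Th0, adding Psap (-0.41), Fcgr3 (-0.45) and Itgam (-0.42), against 16.7% of all genes. Against Th1 there were 7, with Ccr2 (-0.57), Fcgr3 (-0.50), Lyz2 and Ms4a6c beside the 3, against 8.71% of all genes, and Cst3 was higher in Th2 (1 of 22, with 3.49% of all genes; 0.30, adjusted p = 0.0380, limma). With 1 library per condition and time, these p-values measure how evenly a difference ran over the times in 1 pool of cells. They do not measure a spread between animals or between replicate libraries. The 6 libraries of a condition may be serial samples of 1 culture.

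Csf1r, Cd68 and the complement chains did not pass the threshold. Against Th0, the log2 difference of Th2 was 0.02 for Csf1r (SE 0.13), -0.32 for C1qa (SE 0.28), 0.17 for C1qb and -0.10 for Cd68, with adjusted p (limma) between 0.395 and 0.935. Between Th1 and Th0, 0 of 22 members passed the threshold by limma, against 0.494% of all genes in either direction; at an unadjusted p under 0.05 there were 4, all lower in Th1 (Cd68, Itgam, Ms4a6c and Psap), against 10.2% of all genes, and Ms4a6c had -0.53 (adjusted p = 0.0553, limma).

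Across the list, Th2 was not lower from the start. Ctss, Cybb, Mpeg1 and Ms4a6c, however, were lowest in Th2 already at 4 h. At 4 h the Th2 library had the highest of the 3 values for 19 of 32 genes (36.9% of all 11348 genes). It had the lowest for 6 (40.6% of all genes). The same library had the highest sums at 4 h of the red cell, platelet, B cell and CD8 lists (47300, 86.5, 73.1 and 15.7 RPKM). The NK cell, neutrophil and dendritic cell sums at 4 h were highest in Th1 (217.1, 17.8 and 49.4 RPKM). A high Th2 value at 4 h was thus not particular to the macrophage list. At 8 h the Th2 library had the lowest value for 15 (39.9% of all genes) and the highest for 10 (39.2%). At 12 h it had the lowest for 24 (33.8% of all genes) and the highest for 5 (41.5%). At 16, 20 and 24 h it was the lowest for 23, 21 and 18 genes, where 36.6%, 36.3% and 51.5% of all genes were. The list summed to 534.8, 517.1 and 529.3 RPKM in Th0, Th1 and Th2 at 4 h, 488.9, 380.3 and 250.9 RPKM at 8 h, and 244.0, 238.9 and 201.5 RPKM at 24 h. The speed of the loss was also compared between conditions, by an F test of the slopes over hours. By limma 9 of 10737 genes differed (0.0838%), and 0 of 22 members. Spi1 had log2 slopes per hour of -0.05 (Th0), 0.000339 (Th1) and -0.12 (Th2) (adjusted p = 0.0681, limma).

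Markers of other cells by condition stood beside these differences. The B cell list had medians of 32.4, 23.8 and 42.3 summed RPKM in Th0, Th1 and Th2, so it was highest in Th2. The dendritic cell list had 60.1, 63.3 and 46.2 RPKM and the neutrophil list 10.6, 9.05 and 5.56 RPKM, both lowest in Th2. Neither had a gene that passed the threshold for Th2. In median over the tested genes, the log2 difference of Th2 was 0.07 against Th1 and -0.14 against Th0 for the dendritic cell list (5 genes). For the neutrophil list it was -0.51 and -0.48 (4 genes). Of the 8 NK cell genes, 1 was higher in Th2 than in Th0 and 3 lower than in Th1, and of 9 tested B cell genes 2 were higher than in Th1. The part of these cells in the differences was not tested. Among 30 tested genes of the second macrophage list 1 was lower in Th2 in both comparisons: Irf8, a factor of monocytes and dendritic cells that interferon also induces in other cells. Irf8 had 24.7 and 23.2 RPKM at rest and between 42.1 RPKM (Th2 at 16 h) and 344.6 RPKM (Th1 at 24 h) in the cultures, and the log2 difference of Th2 was -1.32 against Th0 (adjusted p = 0.000366, limma) and -1.96 against Th1 (adjusted p = 1.05e-05, limma). It was 1 of the 9 genes whose slope differed between conditions (adjusted p = 0.0167, limma).

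The profile of the list was also used to find genes outside both macrophage lists with the most similar course. Over the 20 libraries, Tgm2 had a Pearson r of 0.991 with the mean profile of 27 members, Rassf4 0.986, Jup 0.983, Fcgrt 0.983 and Zfp36 0.978. These correlations share the step from the 2 resting libraries to the cultures and are a description only. Tgm2, a transglutaminase, had 26.8 ± 1.57 RPKM at rest (SD, n = 2) and 12.8% left at 4 h; Fcgrt, the neonatal Fc receptor, had 14.9 ± 0.221 RPKM (SD, n = 2) and 10.0% left. Zfp36, which encodes the mRNA-decay protein tristetraprolin, was at 312.0 ± 16.9 RPKM (SD, n = 2) with 30.5% left. Within the list, the lowest r with the same profile was that of Ms4a6c (0.548), followed by Ctss (0.711), Axl (0.769) and Cst3 (0.770).

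With actinomycin the members went both ways in 4 h. RPKM is a share of each library, so a higher value need not mean more RNA of that gene. Each time had 1 library, so there is no replicate check. Of 19 members with a mean of at least 1 RPKM in these libraries, 12 were lower and 7 higher at 4 h than at 0 h. Of these, 5 were at least 2-fold lower at 4 h (5.43% of all 10571 genes) and 1 at least 2-fold higher (3.62% of all genes), on the log2(RPKM + 0.5) scale. The 5 were Cybb, from 6.78 to 2.16 RPKM, Spi1, from 4.10 to 1.52 RPKM, Ccr2, from 2.84 to 1.01 RPKM, Mpeg1, from 4.54 to 1.78 RPKM, and Lyz2, from 45.9 to 21.5 RPKM. Ctss was level, with 53.5, 52.8, 63.4 and 52.6 RPKM at 0, 1, 2 and 4 h, as was Cst3 with 47.4, 59.9, 65.4 and 53.2 RPKM. The member that was at least 2-fold higher on that scale was Cd68, with 3.82, 10.3, 13.5 and 30.5 RPKM. Ms4a6c, from 6.49 to 13.0 RPKM, came just under 2-fold on it (log2 difference 0.95). In 2 of the 19 members, Lyz2 and Lst1, all 4 libraries lay above the 3 cultures at 16 h, as they did for 9.76% of all genes. The median log2 difference between 4 and 0 h was -0.18 for the members and -0.0012 for all genes.

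**Figure D5:**
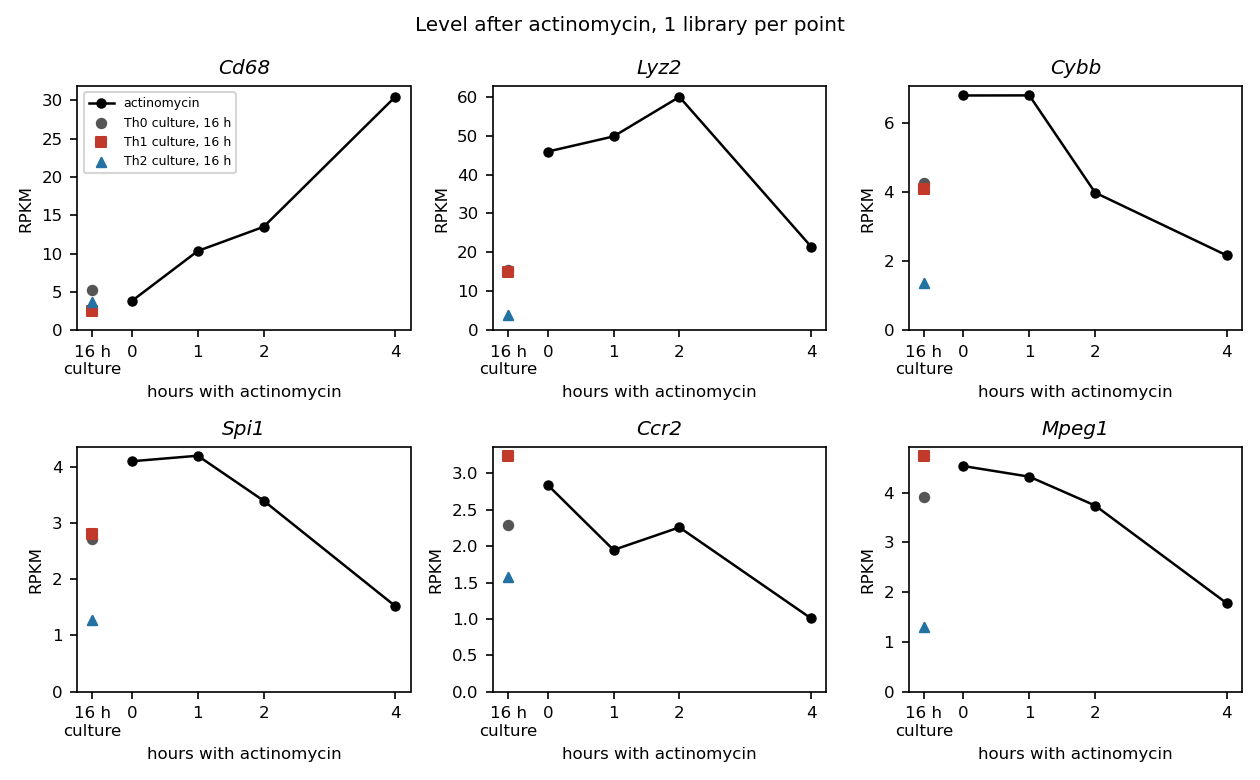
RPKM (linear axis from 0) against hours with actinomycin for 6 members, those with a mean of at least 1 RPKM in these libraries and at least a 2-fold difference between 0 and 4 h on the log2(RPKM + 0.5) scale, 1 library per point, beside the Th0, Th1 and Th2 cultures at 16 h. Cd68 goes from 3.82 to 30.5 RPKM, Cybb, Spi1, Ccr2 and Mpeg1 end lower than they began, and Lyz2 lies above its 16 h cultures at all 4 times.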

How the data were processed

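Per the labels and the study's methods, RNA of mouse CD4+ T cells was sequenced and reads were mapped with BWA to GRCm38. The authors deposited 1 table of RPKM values for 22010 rows, of which 1 had no gene name, summed to 0 and was left out. How reads were assigned to genes and strands is not given in the sources used here. Depth was recovered from the steps between low values: 999 of 1627 single-transcript genes (61.4%) gave the same depth within 0.1%, and whole reads could be given for 11 of the 33 genes, with 95% Poisson intervals and a limit of 3 reads for a count of 0. Intervals and limits cover counting error only.

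Groups were taken from the labels. Values were taken as log2(RPKM + 0.5) and tested with limma 3.58.1 (R 4.3.3), fitting a trend of the variance with intensity. The p-values are two-sided with Benjamini-Hochberg adjustment over all genes that averaged 1 RPKM or more in the fit, with a threshold of adjusted p under 0.05 and at least 2-fold. Fold changes on this scale understate those of low genes. Conditions were compared over the 18 cultures with time as a factor, so that the 6 time points served as repeats although they may be serial samples of 1 culture per condition, and slopes over hours by an F test of the interaction. The fits were tested on simulated data first. Alternatives were other pseudocounts (0.1, 1), a minimum mean of 5 RPKM or none, median-of-ratios and quantile scaling, no trend, and leaving out libraries or time points. Share left is the mean of the 3 cultures over that of the 2 resting libraries. Transcript windows of 50 bases were compared with those of all other annotated genes on either strand. Python 3.11.15, numpy 2.4.6, pandas 2.3.3, scipy 1.17.1 and matplotlib 3.10.9 were used for the rest.

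The members and lists were chosen with earlier results of these data known. Named were all 33 members, genes of the second macrophage list that passed a condition test or were its 3 highest at rest, the 5 genes outside both lists closest to the profile, and the highest genes of each cell type list.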

Additional observations from a re-analysis of the deposited data

Results flagged for a closer look

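The actinomycin libraries lie outside the time-course comparisons, and 2 of the 19 members with a mean of at least 1 RPKM there reached a level at least 2-fold above the highest culture at 16 h. Cd68 was at 30.5 RPKM after 4 h with actinomycin, against at most 5.27 RPKM in the 3 cultures at 16 h. Lyz2 was at 60.0 RPKM after 2 h, against at most 15.5 RPKM in those cultures, and already at 45.9 RPKM in the library at 0 h. The 3 complement chains, which do not come into the count of 19 genes, had 2.02 RPKM (C1qa), 1.99 RPKM (C1qb) and 1.29 RPKM (C1qc) at 4 h with actinomycin. Cd5l, also below that mean, had 0.210 RPKM (11 reads) at 0 h and 1.44 RPKM (53 reads) at 4 h. Below a mean of 1 RPKM, 3 members (Fcgr1, Marco and Cd5l) likewise reached at least 2 times their highest 16 h culture, Fcgr1 with no more than 0.257 RPKM. The rule takes the highest actinomycin library of a gene. How many of all genes meet it was not counted, so nothing is read from these counts. Each time had 1 library and the skewing condition of these cells is not given, so the source of the higher levels was not tested.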

How the results depend on the processing

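Of 286 values recomputed under another setting, 241 gave the same call or a value close to the reported one, and 0 calls reversed. Among the shares left, that of Ccr2 at 4 h crossed the resting level, as given further on. A limma fit by time point, with the 3 cultures of a time taken as repeats, called 1152 of 10897 genes between rest and 4 h. The number was 646 with a minimum mean of 5 RPKM, which tests fewer genes. Cultures of 3 conditions are not replicates, so this is a count over all genes only, and no result about the members rests on it. The number of members lower in Th2 than in Th0, 5, was 3 with a pseudocount of 1, 3 with a minimum mean of 5 RPKM, 2 with median-of-ratios scaling and 3 with quantile normalization, and between 2 and 5 when a time point was left out. Against Th1, the number was 1 instead of 3 with a pseudocount of 1 or a minimum mean of 5 RPKM, and 5 with the times from 12 to 24 h alone. The number of genes whose slopes differed, 9, was 5 with quantile normalization, and between 2 (without 20 h) and 54 (without 4 h) when a time point was left out, with 4 without 8 h and 3 without 16 h or 24 h. Among the members 1 gene, Spi1, passed that test with a pseudocount of 0.1 or without the trend (adjusted p = 0.0460 and 0.0431, limma), and its adjusted p went up to 0.439 under other settings. The median share left at 24 h, 2.46%, was 3.29% with quantile normalization, and between 2.35% and 2.74% with a library left out; at 4 h the range was 11.8% to 16.1%. Except where fewer genes or samples were fitted, the cause was not tested. The median log2 change of all genes from rest to 24 h was -0.04 in the deposited scale, 0.10 after median-of-ratios and 0.13 after quantile scaling. Ccr2 at 4 h came to 103.5% of rest with quantile normalization. No paired analysis was possible because only the resting libraries carry replicate numbers; the fit of the conditions matched them by time point instead.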
